A study of Mus musculus with 28 samples.

Results

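The step examined here is the one between day 1 and day 3 of recovery under lactate, in macrophages of the mouse pancreas after caerulein-induced acute pancreatitis. Members were chosen by the library labels alone: the 4 libraries labelled D3 AP+Lac were set against the 6 labelled D1 AP+Lac, 10 of the 28 libraries of the series. All 10 came from wild-type C57BL/6J mice treated with caerulein, a cholecystokinin analogue that makes acinar cells digest the gland from within, and lactate was given in both groups, so the comparison is of days and not of lactate with its absence. The macrophages were sorted from the pancreas by flow cytometry and their total RNA was sequenced. The same step without lactate, D3 AP+PBS (4 libraries) over D1 AP+PBS (6 libraries), was made from other libraries of the same genotype and strain and is used here only beside the lactate step. AP and Lac are read here as acute pancreatitis and lactate, from the title of the series. The dose and timing of lactate, the gate of the sort and the sex and age of the mice are not stated in the labels. Nor is it stated whether each library is 1 mouse, so the p-values measure a spread between libraries. The limma fit took that spread from all 28 libraries.

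Macrophages in an inflamed organ are a mixture of cells that live in the tissue and cells that come in as monocytes, and both change as the injury resolves. Type I interferon acts through its receptor on the cell surface and switches on a set of antiviral genes in nearly every cell type. MHC class II molecules carry peptides to CD4+ T cells, and the factor CIITA turns their genes on. Alternatively activated macrophages, which arise under interleukin 4 and interleukin 13, are known in mice by the secreted protein Retnla, the lectin Mgl2, the chitinase-like Chil3 and the enzyme Arg1.

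The 10 libraries held 36851594 to 39700935 whole fragments, as recovered from the FPKM values (fragments scaled by the length of the transcript and by the mapped fragments of the library), and no pair of libraries of a group was close to sampling noise. The 14 macrophage markers were present throughout, with a summed level of 8798 to 14284 FPKM on day 3 and 7926 to 16389 FPKM on day 1, and 0 of them were called changed by the limma test (3 had an unadjusted p under 0.05). Day 1 libraries 5 and 6 stood apart from day 1 libraries 1 to 4. They had 17769 to 18062 genes above 0, against 18852 to 19301, and the mean log2(FPKM + 1) of lymphocyte markers was 3.50 to 3.66, against 4.76 to 4.95. The labels name no batch, so what these libraries share is not known. Libraries 5 and 6 of D1 AP+PBS had the same low number of genes (17781 to 18165, against 18918 to 19407 in libraries 1 to 4). Some counts are given with and without libraries 5 and 6 of both day 1 groups, and others only with single libraries left out.

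Between day 1 and day 3 under lactate, RNA of the sorted macrophages came to hold more Mgl2, Retnla and MHC class II and less of the interferon-induced genes, Spp1 and Chil3. With limma on log2(FPKM + 1) and Benjamini-Hochberg adjustment over the 11960 genes tested, 553 genes (4.62%) passed an adjusted p of 0.05, 331 higher (2.77%) and 222 lower (1.86%) on day 3. The values of the 10 libraries did not overlap between the days for 534 genes (4.46%), 328 of them higher (2.74%) and 206 lower (1.72%), and 170 of the higher and 124 of the lower called genes were among them. This list rests on the spread that all 28 libraries share: with only the 10 libraries' own spread, 17 genes passed, while 2138 had an unadjusted p under 0.05. Scaling by median ratios, which moves the median of all genes by -0.10 on the log2 scale, gave 545 calls with the split turned round, 187 higher and 358 lower. Without libraries 5 and 6 of both day 1 groups the count was 496, with 239 higher and 257 lower.

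Single libraries moved the count of 553 widely. It was 159, 184 and 217 without D3 AP+Lac 4, 2 or 1, and 1392 without D3 AP+Lac 3; among day 1 libraries it was 224 and 300 without numbers 5 or 1, and 911 and 862 without numbers 2 or 3. The genes named below include 87 that were called, and each kept its direction in every setting in which it was fitted. They were picked from these libraries, which the settings refit, so the kept direction is no separate support. Of these, 30 passed wherever they had a value among 19 of the 21 other settings. The replicate block, with which 0 of the 87 passed, and the fit to the 10 libraries alone, with which 13 passed, were left out of this count. Of the 87, 82 had a value under the stricter FPKM filter. The 30 were Mgl2, Retnla, Cp, Fcna, Cd209b, Cd209g, Lpl, C4b, C6, Pdgfb, Gbp2b, Hepacam2, Tlr11, Xbp1, Xcr1, Sdc1, Tnfrsf17, Cd74, Ciita, H2-Aa, H2-Ab1 and H2-Eb1, which were higher on day 3, and Chil3, Spp1, Ms4a4a, Ifi27l2a, Bst2, Lgals9, Mxd1 and Ramp3, which were lower.

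Mgl2, a lectin for terminal galactose residues on macrophages and dendritic cells, rose. It stood at 22.8, 26.2, 32.6 and 18.9 FPKM in the D3 AP+Lac libraries, against 3.08 to 6.47 FPKM (median 4.09) in the D1 AP+Lac libraries. No day 1 library reached the lowest of day 3, and the log2 fold change was 2.27 ± 0.25 (SE, adjusted p = 2.79e-05). Retnla, a small secreted protein of alternatively activated macrophages, had 118, 189, 234 and 124 FPKM on day 3 and 28.1 to 49.7 FPKM (median 42.3) on day 1. Its groups did not overlap either, and the log2 fold change was 1.96 ± 0.34 (SE, adjusted p = 0.00263). Cp, which encodes the copper-carrying ferroxidase ceruloplasmin, had 8.34, 13.9, 9.48 and 8.06 FPKM on day 3 and 1.29 to 3.51 FPKM (median 2.37) on day 1, a log2 fold change of 1.73 ± 0.22 (SE, adjusted p = 0.00014).

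Mgl2, Retnla and Cp were among the 17 genes that also passed with the 10 libraries' own spread. The others that rose were Cd74, Fcna, Cd209g, C6, Tlr11, Hepacam2, Il1rl1, Hr and Pianp, and those that fell were Chil3, Ifi27l2a, Ms4a4a, Mxd1 and the unnamed gene model Gm10851. C6, a component of the complement membrane attack complex, had 3.29, 7.63, 2.52 and 3.62 FPKM on day 3, against 0.107 to 1.49 FPKM (median 0.436) on day 1. Tlr11, a receptor for parasite profilin and bacterial flagellin, had 9.77, 8.51, 8.39 and 10.7 FPKM on day 3 and 3.03 to 5.39 FPKM (median 4.79) on day 1. All day 3 libraries were above all day 1 libraries for both genes, at low levels. Ms4a4a, a tetraspanning membrane protein of macrophages, had 41.9, 62.9, 94.5 and 42.6 FPKM on day 3 and 140.3 to 292 FPKM (median 166) on day 1 (log2 fold change -1.70 ± 0.27, SE, adjusted p = 0.00129). Mxd1, a partner of MAX that opposes MYC, fell to 21.4, 18.5, 22.9 and 14.5 FPKM on day 3, against 33.3 to 76.8 FPKM (median 52.5) on day 1, without overlap.

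**Figure D1:**
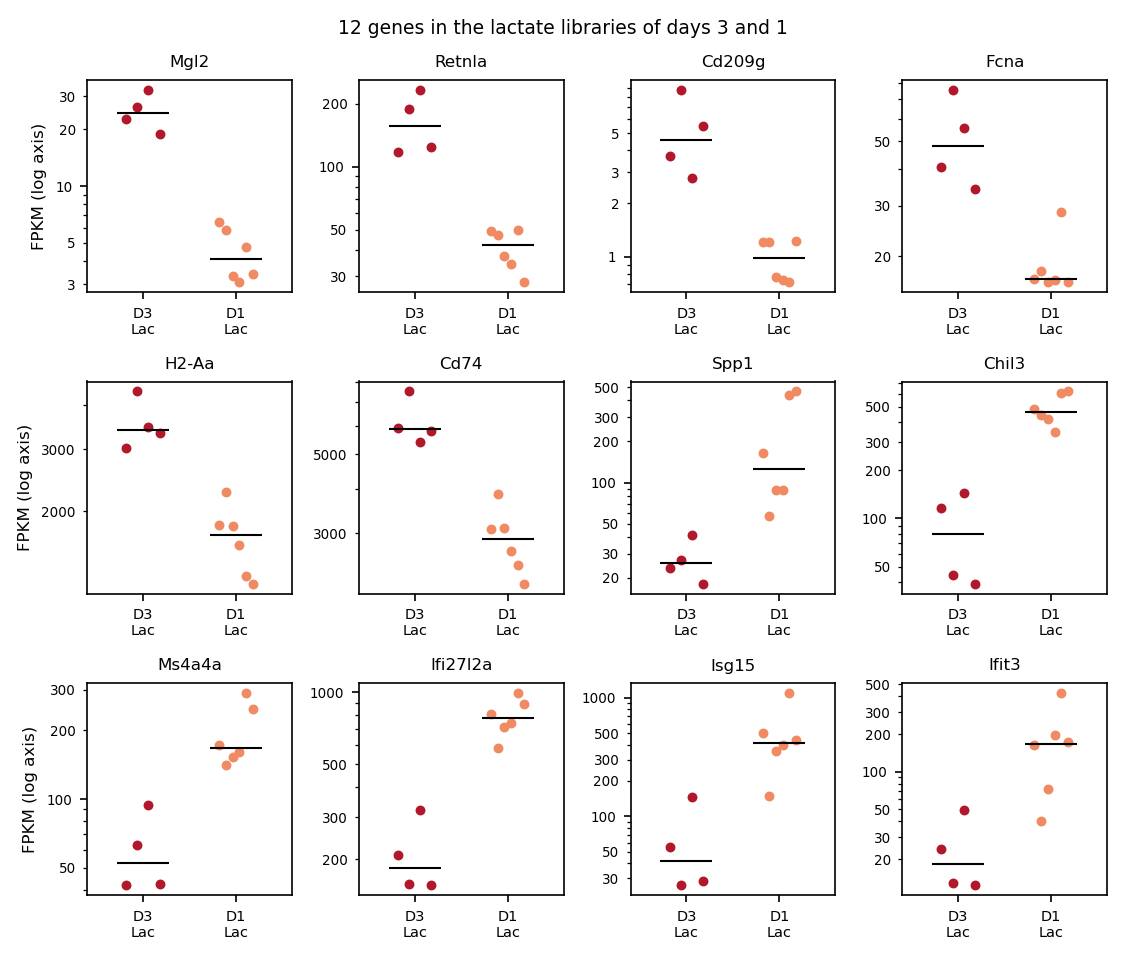
FPKM (log axis, its range set for each gene) of 12 genes in the 4 D3 AP+Lac libraries, on the left of each panel, and the 6 D1 AP+Lac libraries, on the right; points are libraries in the order of their numbers and bars are medians. The groups are apart for all genes shown but Ifit3, where the highest day 3 library (49.7) is above the lowest of day 1 (40.3).

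Genes of resident macrophages rose as a minority of their list. Of 24 members, 7 were called higher and 0 lower (2.77% and 1.86% of all genes), with a median log2 fold change of 0.40 beside 0.09 over all genes tested. Fcna, a secreted ficolin that binds sugars on microbes, had 40.7, 75.6, 55.6 and 34.2 FPKM on day 3 and 16.3 to 28.6 FPKM (median 16.6) on day 1 (log2 fold change 1.38 ± 0.27, SE, adjusted p = 0.00552). Marco, a scavenger receptor with a collagen-like stalk, had 30.2, 50.3, 21.6 and 40.96 FPKM on day 3, against 2.41 to 20.8 FPKM (median 8.79) on day 1. Its groups did not overlap, although day 1 library 2 at 20.8 FPKM lay just under the lowest of day 3.

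Timd4, the receptor Tim-4 that binds phosphatidylserine on dying cells, had 6.65, 4.18, 7.96 and 3.42 FPKM on day 3 and 1.24 to 3.703 FPKM (median 2.01) on day 1, with an overlap of 1 library (log2 fold change 1.01 ± 0.23, SE, adjusted p = 0.0147). Hpgd, which inactivates prostaglandins, had a log2 fold change of 0.90 ± 0.26 (SE), and Mgl2 belongs to the same list. The lectins Cd209f and Cd209g rose by 1.37 and 1.56 on the log2 scale, and Cd209b, which is not in the list, by 1.88. These 3 genes are related in sequence, and the counting rule is not given, so the share of each is uncertain. Pla2g2d, a secreted phospholipase A2 of lymphoid tissue macrophages and dendritic cells, had 5.05, 11.2, 3.45 and 13.6 FPKM on day 3 and 0.379 to 3.04 FPKM (median 2.52) on day 1, without overlap.

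The best known receptors of the same list did not pass the test. Mrc1, the mannose receptor, had 84.5, 172, 202 and 107 FPKM on day 3 and 82.5 to 161 FPKM (median 127) on day 1 (adjusted p = 0.754). Lyve1, a hyaluronan receptor, had a mean of 18.2 ± 6.89 FPKM on day 3 and 9.97 ± 3.62 FPKM on day 1 (SD, n = 4 and 6, limma adjusted p = 0.146). Folr2, a folate receptor, had 156 ± 73.5 FPKM on day 3 and 176 ± 75.2 FPKM on day 1 (SD, limma adjusted p = 0.677), and Stab1, a scavenger receptor, 91.5 ± 31.01 FPKM on day 3 and 148 ± 48.3 FPKM on day 1 (SD, limma adjusted p = 0.147). Leaving out 1 library at a time gave 4 to 7 called members of the list, the lowest without D3 AP+Lac 2 or 4. With PBS the same list had 5 members higher and 10 lower, where 21.5% of all genes were called higher and 12.8% lower. The difference between the steps was called for 4 members, all higher with lactate (4.76% of all genes). Without the day 1 libraries 5 and 6 it was called for 15, where 3408 of all 11960 genes were called in either direction. Without D3 AP+Lac 1 it was called for 10 members, beside 1065 of all genes. Without D3 AP+Lac 2 it was called for 2, beside 622 of all genes.

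MHC class II genes rose. Of 11 members, 7 were called higher and 0 lower (2.77% of all genes were called higher), all 11 had a log2 fold change above 0, and the median log2 fold change was 0.68. The stretches of promoter printed here lie before the start of 3 called members and are shown because each holds the core of the Y box, GATTGG, which NF-Y binds and which is part of the module that class II promoters share. They are RefSeq sequences on build GRCm38.p6, written 5′ to 3′ on the gene's strand, with GATTGG, or CCAATC where the motif lies on the other strand, in capitals.
H2-Aa (chr17:34287827-34287912, - strand): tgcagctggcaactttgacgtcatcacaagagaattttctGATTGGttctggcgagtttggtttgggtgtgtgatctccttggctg
H2-Eb1 (chr17:34305792-34305866, + strand): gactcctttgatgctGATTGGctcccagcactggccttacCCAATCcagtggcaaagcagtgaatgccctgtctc
H2-DMb1 (chr17:34153089-34153174, + strand): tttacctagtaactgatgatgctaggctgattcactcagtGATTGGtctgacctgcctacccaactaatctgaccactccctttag
GATTGG, searched on both strands in the 250 bases before the start, was in all 8 class II genes with a promoter window, in 21.9% of the 9511 tested genes with a window, in 23.6% of those called higher, in 17.8% of those called lower and in 14.6% of the 32851 windows in the table. A match is a string of letters and not a measured site.

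H2-Aa, the alpha chain of I-A, had 3023, 4388, 3468 and 3326 FPKM on day 3 and 1242 to 2273 FPKM (median 1707) on day 1 (log2 fold change 1.10 ± 0.20, SE, adjusted p = 0.0033). H2-Eb1, the beta chain of I-E, had 1734, 2632, 1934 and 2083 FPKM on day 3 and 739 to 1365 FPKM (median 1013) on day 1, and for both genes the groups were apart. Cd74, the invariant chain that guides class II molecules to the endosome, had 5937, 7517, 5409 and 5808 FPKM on day 3 and 2161 to 3872 FPKM (median 2879.5) on day 1 (log2 fold change 1.11 ± 0.18, SE, adjusted p = 0.00129). Ciita, the transactivator of these genes, had 58.1, 48.2, 51.8 and 57.97 FPKM on day 3, against 12.9 to 39.1 FPKM (median 25.4) on day 1, without overlap (log2 fold change 1.12 ± 0.21, SE, adjusted p = 0.0045).

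H2-DMb1, a chain of the peptide exchange factor H2-DM, had 253, 239, 254 and 194 FPKM on day 3 and 124 to 202 FPKM (median 139) on day 1 (log2 fold change 0.67 ± 0.15, SE), and day 1 library 2 was above the lowest of day 3. H2-Ab1 and H2-DMa were the other members called higher. The members not called were H2-Eb2, H2-DMb2, H2-Oa and H2-Ob. The 12 B cell markers had 0 members called (2 at an unadjusted p under 0.05), but all 12 had a log2 fold change above 0, with a median of 0.70. Their summed levels were 998, 714, 506 and 1214 FPKM on day 3 and 737, 868, 1078, 713, 230.5 and 250.2 FPKM on day 1. The part of B cells in the rise of the class II genes was not tested. Leaving out 1 library at a time gave 6 or 7 called class II members, and leaving out day 1 libraries 5 and 6 of both treatments gave 5. With PBS 10 of the 11 members were called higher, where 21.5% of all genes were. Limma called 0 of the 11 for the difference between the steps (0 at an unadjusted p under 0.05), with a median difference of 0.10 on the log2 scale.

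Genes that type I interferon induces were lower on day 3. Of 28 members tested, 18 were called lower and 0 higher (1.86% of all genes were called lower), the log2 fold change was below 0 for all 28, and the median log2 fold change was -1.67. Stretches of the promoters of 3 such genes are shown because they hold the core of the interferon-stimulated response element, GAAA followed by any 2 bases and GAAA again, through which interferon switches on many of its target genes. They come from the same RefSeq table and build, with the motif, which reads TTTC, any 2 bases and TTTC where it lies on the other strand, in capitals.
Isg15 (chr4:156200835-156200924, - strand): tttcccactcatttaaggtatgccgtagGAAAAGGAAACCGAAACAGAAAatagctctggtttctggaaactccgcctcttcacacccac
Ifit3 (chr19:34583367-34583456, + strand): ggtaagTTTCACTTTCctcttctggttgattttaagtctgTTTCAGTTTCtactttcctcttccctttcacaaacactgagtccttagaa
Rsad2 (chr12:26456523-26456612, - strand): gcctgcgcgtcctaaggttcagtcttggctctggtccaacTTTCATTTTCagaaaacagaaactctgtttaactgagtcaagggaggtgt
This core, searched on both strands with overlaps allowed, was in 10 of the 21 members with a promoter window (47.6%), in 26 of 185 genes called lower (14.1%), in 8 of 258 called higher (3.1%) in 3.57% of the tested genes with a window and in 2.98% of all windows.

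Isg15, a ubiquitin-like protein, had 55.2, 26.2, 144 and 28.3 FPKM on day 3 and 149 to 1099.8 FPKM (median 417) on day 1. The highest day 3 library, number 3, was just under the lowest day 1 library, number 2, and the log2 fold change was -3.04 ± 0.70 (SE, adjusted p = 0.0155). Ifit3, of a family that binds viral RNA, had 23.98, 12.8, 49.7 and 12.3 FPKM on day 3 and 40.3 to 429 FPKM (median 168) on day 1, with the same pair of libraries overlapping (log2 fold change -2.67 ± 0.73, SE, adjusted p = 0.0381). Rsad2, the antiviral enzyme viperin, had 11.2, 8.17, 32.5 and 6.78 FPKM on day 3 and 20.03 to 319 FPKM (median 106) on day 1, again with that overlap. Irf7, which amplifies interferon production, had 149, 58.8, 203 and 69.3 FPKM on day 3, against 203 to 1093 FPKM (median 560.0) on day 1 (log2 fold change -2.29 ± 0.60, SE).

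Usp18, the protease that removes Isg15 from its targets, had 30.6, 14.8, 42.2 and 22.3 FPKM on day 3 and 46.6 to 307 FPKM (median 159.7) on day 1, without overlap (log2 fold change -2.31 ± 0.54, SE, adjusted p = 0.0167). Bst2, the tether tetherin, had 119, 126, 251 and 102 FPKM on day 3 and 269.6 to 956 FPKM (median 410.1) on day 1, also without overlap (log2 fold change -1.65 ± 0.33, SE, adjusted p = 0.00706). Oas2, which makes the oligoadenylates that activate RNase L, had a log2 fold change of -1.66, and Oasl1, of the same family, one of -2.30. Ifit1, Ifit1bl1, Ifit3b and Slfn4 had log2 fold changes of -2.47, -2.24, -2.72 and -2.79. Ifit3 and Ifit3b, and Ifit1 and Ifit1bl1, are near copies of each other, so their values may be split between them.

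Ifi27l2a, an interferon-induced mitochondrial membrane protein, is not in the list. It had 208, 157, 321 and 155 FPKM on day 3 and 584 to 997 FPKM (median 780.3) on day 1 (log2 fold change -1.95 ± 0.26, SE, adjusted p = 0.000153), and the highest day 3 library was under the lowest of day 1. Ifit2, a list member, was not called (log2 fold change -2.39 ± 0.78, SE, adjusted p = 0.07).

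The count of 18 rests on single libraries. It was 1 without D3 AP+Lac 2 or without D3 AP+Lac 4, and 6 without D3 AP+Lac 1. Without D3 AP+Lac 3, which had the highest values of its group, it was 26, where 482 of all 11960 genes were called lower. Among day 1 libraries it was 4, 7, 8 and 10 without numbers 5, 1, 6 and 4. Without number 2, the lowest of its group, it was 25, where 383 of all genes were called lower. With the 10 libraries' own spread, or with the replicate block, 0 members passed limma's adjusted threshold, 3 did with a lymphocyte covariate and 9 with no filter on low values, while all 28 had an unadjusted p under 0.05 in the fit with the shared spread. The summed level of the list was 1356, 782, 2334 and 741 FPKM in the D3 AP+Lac libraries and 4372, 2074, 2938, 4382, 8704 and 4699.5 FPKM in the D1 AP+Lac libraries, so that day 3 library 3 lay within the day 1 range and the other 3 below it.

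With PBS the same list moved the other way. Its summed level was 3959.9, 1766, 2639 and 3886 FPKM in D3 AP+PBS and 693, 782, 936, 824, 5478 and 2247 FPKM in D1 AP+PBS. With PBS 18 members were called higher and 0 lower, where 21.5% of all genes were called higher and 12.8% lower. Libraries 5 and 6 of D1 AP+PBS were high and its libraries 1 to 4 low. The difference between the steps was called for 27 of the 28 members, all lower with lactate, with a median of -2.95 on the log2 scale; over all genes the difference was called lower for 5.94% of 11960 and the median was 0.01. It was called for 27 or 28 members under each of the 21 other settings tried.

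**Figure D2:**
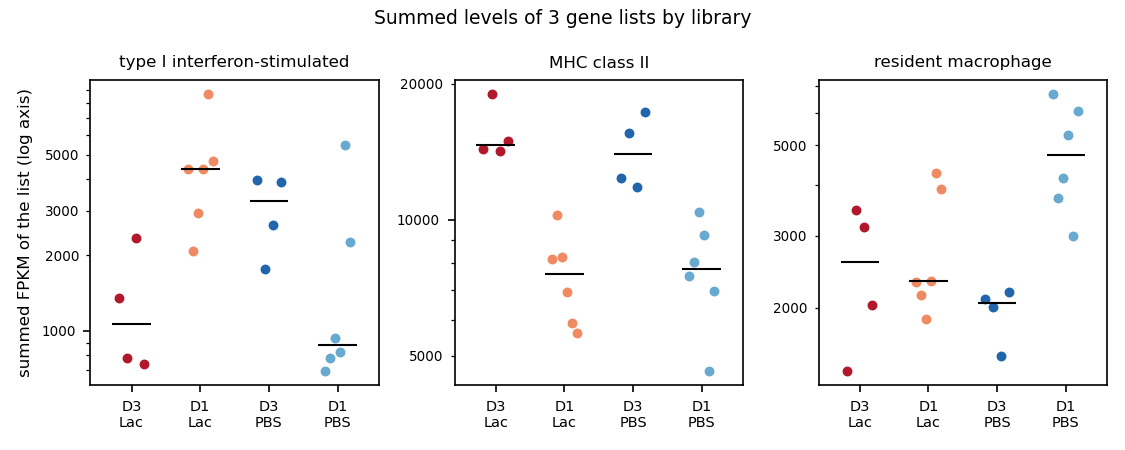
Summed FPKM (log axis) of 3 gene lists by library in D3 AP+Lac, D1 AP+Lac, D3 AP+PBS and D1 AP+PBS, with medians as bars. The interferon list is low in D3 AP+Lac and high in D1 AP+Lac, and the other way round with PBS apart from 2 D1 AP+PBS libraries, while MHC class II is higher on day 3 with either treatment.

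Most genes of the interferon gamma list had a log2 fold change below 0, but 0 of them were called lower. Of 23 members, Gbp2b and Ciita were called, both higher, where 2.77% of all genes were called higher and 1.86% lower. The median log2 fold change of the list was -0.88, and 20 of its members were below 0 (21 with median-ratio scaling and 19 with quantile normalization). Limma's unadjusted p was under 0.05 for 10 members that were lower and 2 that were higher. Without D3 AP+Lac 3, 8 members were called lower, beside 482 of all 11960 genes, and with array weights 14, beside 677. Gbp2b, a guanylate-binding GTPase, had 67.1, 24.3, 41.3 and 9.16 FPKM on day 3 and 1.98 to 23.1 FPKM (median 3.56) on day 1, with day 1 library 2 far above its group (log2 fold change 2.39 ± 0.50, SE, adjusted p = 0.00859). Gbp10, outside the list, fell to 3.35, 0.648, 2.48 and 1.12 FPKM on day 3, against 3.98 to 19.95 FPKM (median 11.3) on day 1. Guanylate-binding genes lie in clusters of close copies, which makes both values uncertain.

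Cxcl9 and Cxcl10, chemokines that draw T cells through CXCR3, were not called. Cxcl10 had 81.5, 34.7, 240.0 and 22.1 FPKM on day 3 and 203 to 826 FPKM (median 285) on day 1 (log2 fold change -2.41 ± 0.81, SE, adjusted p = 0.0778), and Cxcl9 had 57.5, 27.3, 116 and 20.5 FPKM on day 3 and 58.3 to 125 FPKM (median 106) on day 1 (adjusted p = 0.346). Of 18 genes of MHC class I and its peptide loading 0 were called by limma, 10 had an unadjusted p under 0.05, and the median was -0.43. Of these 18, 17 had a log2 fold change below 0, and the list summed to 7125 to 9298 FPKM on day 3 and 9623 to 12946 FPKM on day 1. The difference from the PBS step was called lower for 13 of the 23 interferon gamma genes and for 14 of the 18 class I genes, where 5.94% of all genes were. With PBS 14 members of each list were called higher, where 21.5% of all genes were.

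Spp1 and Chil3 fell. Spp1, the secreted matrix protein osteopontin, had 23.7, 27.2, 40.98 and 18.04 FPKM on day 3 and 56.5 to 468 FPKM (median 126) on day 1 (log2 fold change -2.53 ± 0.46, SE, adjusted p = 0.00389). The day 3 libraries were close together, and day 1 libraries 5 and 6 were the highest of day 1 at 439.9 and 468 FPKM. Chil3, a chitinase-like protein made by monocytes and alternatively activated macrophages, had 116, 44.2, 144 and 38.98 FPKM on day 3 and 348 to 624 FPKM (median 464) on day 1 (log2 fold change -2.69 ± 0.35, SE, adjusted p = 0.000153). Retnla and Mgl2, which stand beside Chil3 in the alternative activation list, rose. With PBS the log2 fold changes of Chil3 and Spp1 were -2.42 and -2.28, and the difference between the steps was not called for either gene.

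The lipid-associated macrophage list split evenly. Of 18 members 3 rose, Lpl, Cd36 and Mmp12, and 3 fell, Spp1, Trem2 and Tyrobp (2.77% of all genes rose and 1.86% fell), around a median log2 fold change of -0.02. Lpl, lipoprotein lipase, had 44.6, 96.3, 78.6 and 40.4 FPKM on day 3 and 17.3 to 33.2 FPKM (median 23.4) on day 1 (log2 fold change 1.31 ± 0.23, SE, adjusted p = 0.00328). Cd36, a receptor for fatty acids and oxidised lipoproteins, had 23.6, 41.8, 37.8 and 25.9 FPKM on day 3 and 14.01 to 23.1 FPKM (median 15.9) on day 1, the groups just apart. Mmp12, a macrophage elastase, had 0.616, 0.735, 9.62 and 1.12 FPKM on day 3 and 0.0347 to 0.445 FPKM (median 0.1996) on day 1, and most of the difference in level came from day 3 library 3.

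Trem2, a lipid-sensing receptor, had 21.3, 55.4, 69.5 and 38.5 FPKM on day 3 and 57.9 to 188 FPKM (median 81.3) on day 1, with an overlap (log2 fold change -1.10 ± 0.31, SE, adjusted p = 0.0399). Its adaptor Tyrobp had 327, 500.3, 656 and 351 FPKM on day 3 and 565 to 839.6 FPKM (median 691) on day 1 (log2 fold change -0.64 ± 0.18, SE, adjusted p = 0.0421). Gpnmb, a glycoprotein of lysosome-rich macrophages, had 5.53 ± 1.82 FPKM on day 3 and 19.3 ± 16.3 FPKM on day 1 (SD, n = 4 and 6, limma adjusted p = 0.0719). Of 36 lysosome genes 3 were called lower (1.86% of all genes), the proteases Ctsd and Ctsl and the cholesterol carrier Npc2, with log2 fold changes of -0.96, -0.91 and -0.78. Limma called 0 lysosome genes without D1 AP+Lac 5, D1 AP+Lac 6, D3 AP+Lac 1 or D3 AP+Lac 4. It also called 0 with quantile normalization and with no filter on low values, although 16 had an unadjusted p under 0.05 with all libraries. Without D3 AP+Lac 3 it called 9 lower, beside 482 of all 11960 genes. With PBS 28 of the 36 were called lower (12.8% of all genes).

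In the alternative activation list 3 of 22 members rose and 2 fell (2.77% and 1.86% of all genes), with a median log2 fold change of 0.12 (0.0078 with median-ratio scaling). Ear2, an eosinophil-associated ribonuclease, had 27.5, 36.2, 46.3 and 40.2 FPKM on day 3 and 10.7 to 26.9 FPKM (median 18.4) on day 1, and rose with Retnla and Mgl2. Socs2, a suppressor of cytokine signalling, fell, as Chil3 did, with a log2 fold change of -0.69. Arg1, which turns arginine into ornithine and is the enzyme most often used to mark this state, had 100.5, 69.2, 120.0 and 4.88 FPKM on day 3 and 8.097 to 33.02 FPKM (median 21.2) on day 1. Day 3 libraries 1 to 3 were above every day 1 library and library 4 was below them all, and the difference was not called (log2 fold change 1.33 ± 0.69, SE, adjusted p = 0.211; exact permutation p = 0.181).

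Of 24 monocyte genes 4 fell, Chil3, Ms4a4c, Plac8 and Ifitm3, and 0 rose, where 1.86% of all genes were called lower and 2.77% higher. Ms4a4c had 67.2, 37.4, 120.1 and 46.4 FPKM on day 3 and 124 to 468 FPKM (median 224) on day 1, without overlap. Plac8 had 134, 41.6, 157 and 71.4 FPKM on day 3 and 226 to 389 FPKM (median 263) on day 1, also without overlap. Ly6c2, the surface antigen that marks inflammatory monocytes, had 292, 110.0, 325 and 136 FPKM on day 3 and 441 to 1289.8 FPKM (median 668) on day 1; the groups were apart, but the adjusted p was 0.0648 (log2 fold change -1.85 ± 0.59, SE). Ccr2, the receptor by which these monocytes leave the marrow, had 225, 250.3, 334 and 169.7 FPKM on day 3 and 169 to 385 FPKM (median 243) on day 1 (adjusted p = 0.756). Ms4a4c, Plac8, Ifitm3 and Ly6c2 are also known to respond to interferon, and whether they moved as monocyte or as interferon genes was not tested. In these sorted bulk samples fewer cells of a type and less RNA per cell cannot be told apart.

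General macrophage genes were not called, and the log2 fold changes of Adgre1 and Csf1r changed sign with another scaling. Adgre1, the F4/80 antigen, had 212 ± 70.6 FPKM on day 3 and 231 ± 79.1 FPKM on day 1 (SD, n = 4 and 6, limma adjusted p = 0.724). Csf1r, which receives the growth factor M-CSF, had 381 ± 78.9 FPKM on day 3 and 382 ± 116 FPKM on day 1 (SD, limma adjusted p = 0.952). Cd68, a lysosomal glycoprotein, had 277 ± 51.1 FPKM on day 3 and 388 ± 120.3 FPKM on day 1 (SD, limma adjusted p = 0.139), and Mertk, a receptor for apoptotic cells, 10.3 ± 4.24 FPKM on day 3 and 17.9 ± 5.11 FPKM on day 1 (SD, limma adjusted p = 0.0639). With PBS these 4 genes fell, with log2 fold changes of -1.35, -1.07, -1.21 and -1.40, and the difference between the steps was called for Adgre1 (1.22 ± 0.32, SE, adjusted p = 0.0173) and Csf1r (1.09 ± 0.24, SE, adjusted p = 0.00895).

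Inflammatory cytokines and chemokines gave 1 call, where 4.62% of all genes were called. Of 28 members only Il1rn, the interleukin 1 receptor antagonist, was called, with 13.3, 8.96, 37.2 and 9.89 FPKM on day 3 and 30.3 to 105 FPKM (median 73.03) on day 1 (log2 fold change -2.09 ± 0.56, SE, adjusted p = 0.0364). Il1b had 193, 258, 221 and 94.4 FPKM on day 3 and 76.6 to 249 FPKM (median 165) on day 1, and Tnf had 14.1, 18.6, 26.3 and 10.3 FPKM on day 3 and 7.86 to 23.5 FPKM (median 12.3) on day 1, with overlap throughout. Il10 and Nos2 had log2 fold changes of 0.09 ± 0.34 and -0.27 ± 0.60 (SE), neither of them called. Nos2, the inducible nitric oxide synthase, was uneven, at 3.38, 0.251, 20.05 and 0.0926 FPKM on day 3.

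Genes of repair and of lactate handling are read against the 4.62% of all genes called. Of 15 repair growth factor genes 1 was called, Pdgfb, with 8.202, 13.2, 10.97 and 12.3 FPKM on day 3 and 3.62 to 7.31 FPKM (median 4.76) on day 1 (log2 fold change 1.00 ± 0.19, SE, adjusted p = 0.00574), and no library of day 1 reached day 3. Igf1, Vegfa and Tgfb1 had log2 fold changes of 0.79 ± 0.27, 0.57 ± 0.26 and 0.13 ± 0.10 (SE) and did not pass. Limma called 0 of 12 genes of lactate transport and conversion and 0 of 15 histone lactylation writers and erasers, where 3 and 1 had an unadjusted p under 0.05. The transporters Slc16a1 and Slc16a3 had 8.22 ± 2.59 and 16.4 ± 6.82 FPKM on day 3, against 6.18 ± 3.39 and 11.5 ± 4.19 FPKM on day 1 (SD). Ldha, which makes lactate from pyruvate, had 130.2, 86.8, 88.5 and 94.2 FPKM on day 3 and 60.4 to 125 FPKM (median 74.9) on day 1. Ldhb and the acetyltransferase Ep300 had log2 fold changes of -0.34 ± 0.20 and 0.23 ± 0.17 (SE). Glycolysis (24 genes), the respiratory chain (37) and ribosomal proteins (62) had 0 members called by limma and 8, 15 and 14 with an unadjusted p under 0.05. The lactate receptor Hcar1 was at 0, 0, 0.00831 and 0.0487 FPKM on day 3 and at most 0.0163 FPKM on day 1, and was not tested.

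Cell cycle genes gave 0 calls, although all 38 members had a log2 fold change above 0, also with quantile normalization and median-ratio scaling, and a median of 0.58. Limma's unadjusted p was under 0.05 for 5 of them. Mki67 had 61.9, 37.1, 24.6 and 60.9 FPKM on day 3 and 11.9 to 45.1 FPKM (median 20.1) on day 1 (adjusted p = 0.121), and Top2a, a topoisomerase of dividing cells, 86.2, 59.9, 37.4 and 99.5 FPKM on day 3 and 19.8 to 84.6 FPKM (median 35.9) on day 1. In both genes day 1 libraries 2 and 3 were as high as the lower day 3 libraries.

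**Figure D3:**
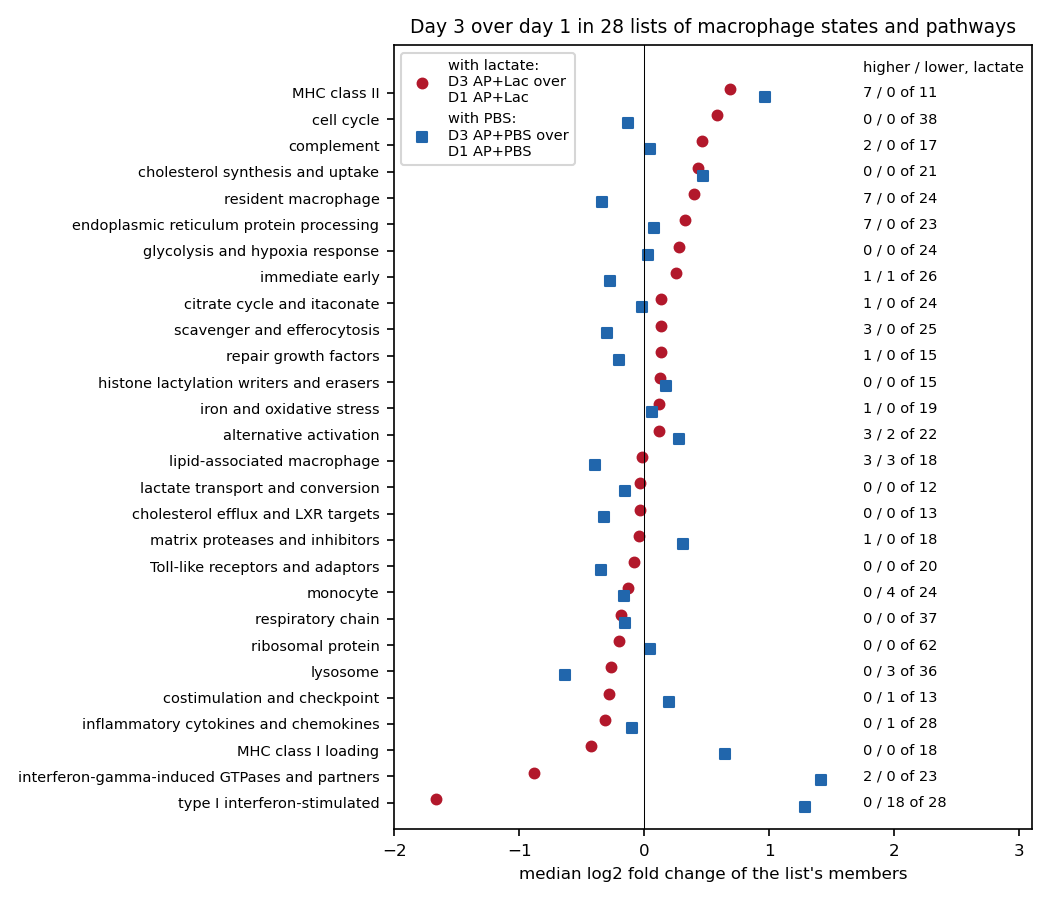
Median log2 fold change of the tested members of 28 lists of macrophage states and pathways, day 3 over day 1, with lactate (circles, drawn above) and with PBS (squares). The numbers at the right give the members called higher and lower with lactate; type I interferon genes have the lowest median with lactate (-1.67) and MHC class II the highest (0.68).

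Markers of plasma cells rose in the sorted cells. Of 8 members 6 were called higher and 0 lower, where 2.77% of all genes were called higher, with a median of 1.59, and the summed level was 978, 1692, 494 and 1595 FPKM in the D3 AP+Lac libraries, against 170.1, 458, 479, 174, 70.7 and 67.6 FPKM in the D1 AP+Lac libraries. Jchain, which joins IgA and IgM chains, had 609, 1264, 331 and 1039 FPKM on day 3 and 10.9 to 231 FPKM (median 69.2) on day 1 (log2 fold change 3.59 ± 0.95, SE, adjusted p = 0.0321). Sdc1, the plasma cell antigen CD138, had 12.5, 14.2, 6.13 and 17.2 FPKM on day 3 and 1.22 to 5.298 FPKM (median 2.06) on day 1, without overlap. Tnfrsf17, the survival receptor BCMA, had 2.17, 2.97, 1.38 and 4.21 FPKM on day 3 and 0.208 to 1.36 FPKM (median 0.257) on day 1, also without overlap (log2 fold change 1.28 ± 0.24, SE, adjusted p = 0.0045). With PBS 0 of the 8 markers were called, around a median log2 fold change of -0.13, and the list summed to 120 to 356 FPKM on day 3 and 72.3 to 832 FPKM on day 1. The difference between the steps was called for 2 of the 8, both higher with lactate (4.76% of all genes), and 7 had an unadjusted p under 0.05 for it.

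Derl3, Txndc5, Prdm1, Bhlha15 and Endou, which plasma cells and in part acinar cells express, rose by 2.35, 1.13, 0.45, 1.46 and 1.502 on the log2 scale. Of 23 genes of protein processing in the endoplasmic reticulum 7 were called higher (2.77% of all genes) and 0 lower, with a median of 0.33 beside 0.09 over all genes, and 3 were called with median-ratio scaling or without day 1 libraries 5 and 6. Xbp1, a transcription factor of the unfolded protein response, had 148, 150.2, 102 and 177 FPKM on day 3 and 64.2 to 108 FPKM (median 81.8) on day 1 (log2 fold change 0.76 ± 0.15, SE, adjusted p = 0.00778), and Herpud1, Pdia4 and Edem1 rose by 0.78, 0.77 and 0.37. Xbp1 is high in plasma cells, whose markers moved in the same libraries, with the lowest day 3 value of both in library 3; the part of plasma cells in the endoplasmic reticulum genes was not tested. Leaving out D3 AP+Lac 1, 2 or 4 left 2 plasma cell markers called, and 1 or 2 of the endoplasmic reticulum genes, leaving out D1 AP+Lac 5 left 3 and 2, D1 AP+Lac 1 left 3 and 4, and D1 AP+Lac 6 left 4 and 4. Leaving out D1 AP+Lac 2 or 3 gave 11 of the endoplasmic reticulum genes, beside 528 and 569 of all 11960 genes called higher.

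Markers of mast cells, basophils and eosinophils were low and rose. Of 9 members tested 5 were called higher (2.77% of all genes) and 0 lower, with a summed level of 42.5, 53.2, 26.3 and 110.3 FPKM on day 3 and 24.6, 30.7, 23.2, 21.7, 10.3 and 10.3 FPKM on day 1. Cpa3, the mast cell carboxypeptidase, had 6.31, 7.74, 4.42 and 27.3 FPKM on day 3 and 0.663 to 4.01 FPKM (median 3.03) on day 1. Fcer1a, a chain of the IgE receptor, had 1.56, 2.35, 1.395 and 8.03 FPKM on day 3 and 0.0259 to 1.09 FPKM (median 0.496) on day 1, and in both genes library 4 was the highest of day 3. Without D3 AP+Lac 4 no member of the list was called, and 2 were without D3 AP+Lac 1, D3 AP+Lac 2 or D1 AP+Lac 5, and 3 without D1 AP+Lac 1 or 6. Kit, Prg2 and Cma1 were the other members called, and the eosinophil peroxidase gene Epx was at 0 in all 10 libraries.

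Dendritic cell markers went both ways. Xcr1, Clec9a and Itgae, which mark cross-presenting dendritic cells, rose by 1.18, 0.71 and 0.82 on the log2 scale, and Xcr1 had 12.5, 13.7, 6.13 and 18.4 FPKM on day 3 and 3.88 to 6.65 FPKM (median 4.23) on day 1. Fscn1 and Cacnb3, which mark migrating mature dendritic cells, fell, with log2 fold changes of -1.62 and -1.49. Fscn1 had 64.1, 26.5, 33.96 and 56.2 FPKM on day 3 and 59.1 to 202 FPKM (median 147) on day 1. The summed level of the 16 dendritic cell markers was 433 to 538 FPKM on day 3 and 500.3 to 759 FPKM on day 1.

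Pancreatic and lymphocyte RNA was present on both days. The 20 acinar markers summed to 764, 3633, 2089.5 and 6687 FPKM on day 3 and 2226, 1916, 2604, 5104, 1543 and 1665 FPKM on day 1, with 0 called by limma and 0 at an unadjusted p under 0.05, and the trypsinogen gene Prss1, outside that list, was at 1.41, 10.7, 7.26 and 15.6 FPKM on day 3 and 0.281 to 2.18 FPKM (median 0.834) on day 1 (log2 fold change 2.01 ± 0.52, SE, adjusted p = 0.0289). Reg3g, an injury-induced lectin of acinar cells, fell (log2 fold change -1.80), to 1.401, 11.5, 2.46 and 5.63 FPKM on day 3, against 10.1 to 47.8 FPKM (median 15.7) on day 1. Limma called 0 members of the T cell, B cell, cytotoxic, neutrophil, ductal, endothelial and fibroblast lists, of which 0, 2, 3, 0, 1, 2 and 4 members had an unadjusted p under 0.05. The cytotoxic list summed to 374 to 505 FPKM on day 3 and 619 to 945 FPKM on day 1, without overlap. Its members went both ways, 6 of 13 above 0 and 7 below, with a median log2 fold change of -0.013. The member Gzma had 57.4, 72.7, 70.3 and 46.3 FPKM on day 3 and 63.7 to 187 FPKM (median 121) on day 1 (limma adjusted p = 0.155).

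**Figure D4:**
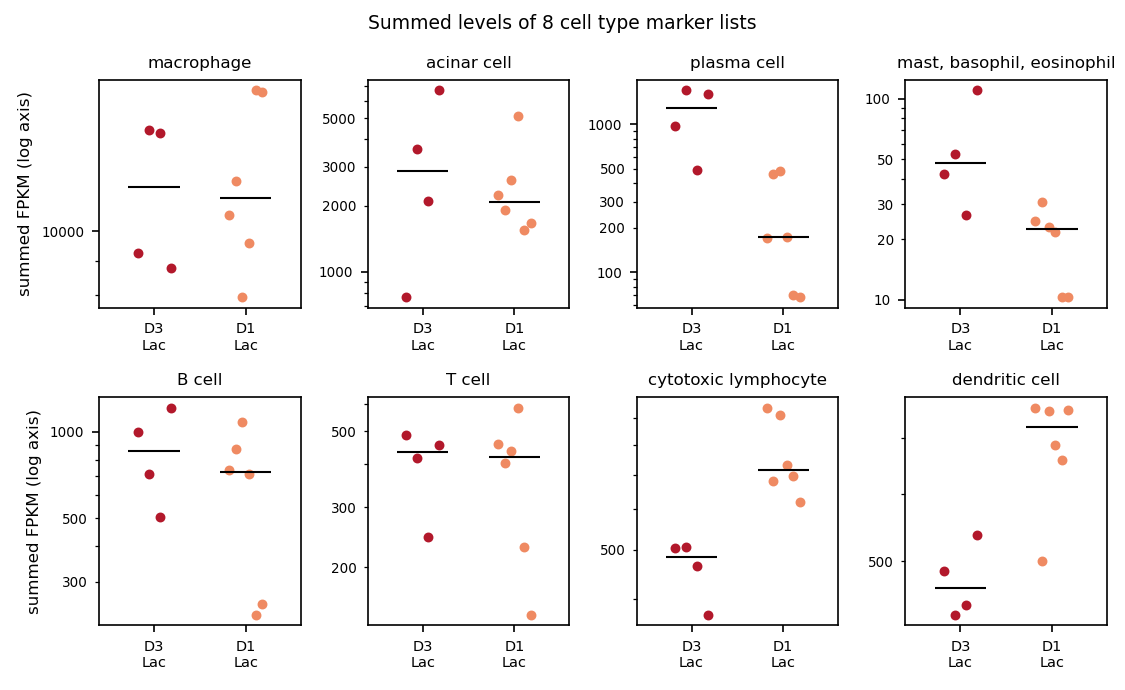
Summed FPKM (log axis, its range set for each panel) of 8 cell type marker lists in the 4 D3 AP+Lac libraries, on the left, and the 6 D1 AP+Lac libraries, on the right, with medians as bars. The plasma cell sum is higher on day 3 (494 to 1692 FPKM, against 67.6 to 479 on day 1), and macrophage sums overlap. The cytotoxic sum is lower, although 6 of its 13 members have a log2 fold change above 0.

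Single genes changed in several other lists. Of 17 complement genes 2 were called higher (2.77% of all genes) and 0 lower, C4b and C1ra of the classical pathway. The log2 fold change was above 0 for 11 members and below 0 for 6. With PBS 6 were called higher and 7 lower, where 21.5% and 12.8% of all genes were. C4b had 83.7, 94.3, 98.3 and 39.9 FPKM on day 3 and 21.9 to 46.4 FPKM (median 25.7) on day 1 (log2 fold change 1.38 ± 0.21, SE, adjusted p = 0.000842). Klf2, a transcription factor of quiescent cells, rose by 0.67 and Nr4a3, a nuclear receptor of the immediate early response, fell, with a log2 fold change of -1.04. Lgals9, the checkpoint ligand galectin 9, had 88.9, 66.9, 118 and 61.7 FPKM on day 3 and 122 to 306 FPKM (median 196) on day 1, without overlap. Slc11a2, an iron transporter, and Aco1, the iron-sensing cytosolic aconitase, rose by 0.49 and 0.31. Ramp3, a partner of receptors for adrenomedullin and calcitonin peptides, had 1.096, 1.14, 1.18 and 1.48 FPKM on day 3 and 1.82 to 19.1 FPKM (median 15.2) on day 1. All 4 day 3 libraries were alike and low, and the day 1 libraries ranged widely (log2 fold change -2.26 ± 0.49, SE, adjusted p = 0.0118).

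The lactate step was set beside the PBS step gene by gene. With PBS 4103 genes (34.3%) were called, and with lactate 553; the median absolute log2 fold change over all genes was 0.18 with lactate and 0.25 with PBS. Across the 11960 genes the fold changes of both steps had a Pearson correlation of 0.12, a description over genes that share libraries within each step. Of the 331 genes that rose with lactate 116 (35.0%) also rose with PBS and 3 fell, where 21.5% of all genes rose with PBS and 12.8% fell. Of the 222 that fell with lactate 67 (30.2%) also fell with PBS and 56 rose. The genes called in the same direction in both steps, 183, were 33.1% of those called with lactate and 4.46% of those called with PBS.

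Mgl2, Retnla, Lpl, Spp1 and Chil3 were among the genes that moved alike. Mgl2 had 21.9, 40.9, 21.3 and 41.2 FPKM in D3 AP+PBS and 2.94 to 11.03 FPKM (median 7.56) in D1 AP+PBS (log2 fold change 1.98, adjusted p = 1.15e-05), and the difference between the steps was 0.28 ± 0.36 (SE, adjusted p = 0.65). Retnla had 304, 356, 96.8 and 462 FPKM in D3 AP+PBS and 40.9 to 99.8 FPKM (median 73.02) in D1 AP+PBS, and Spp1 had 54.1, 39.03, 31.8 and 30.4 FPKM in D3 AP+PBS and 91.2 to 295 FPKM (median 224) in D1 AP+PBS. The steps of Retnla differed by 0.05 ± 0.49 and those of Spp1 by -0.25 ± 0.65 (SE), and neither difference was called, which does not show that the steps were equal.

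The test of the difference itself called 1280 genes (10.7%), 569 with a higher and 711 with a lower fold change under lactate. The lowest named were Ly6i, an antigen of the Ly6 family (-4.93 ± 1.13, SE, adjusted p = 0.0092), and Isg15, Ifit3b, Ifit3, Rsad2, Ifit2, Slfn4 and Ifit1, between -4.87 and -4.32. Ly6i had 37.5, 6.03, 40.9 and 21.04 FPKM in D3 AP+Lac and 51.8 to 124 FPKM (median 83.6) in D1 AP+Lac, against 186, 73.7, 70.7 and 279 FPKM in D3 AP+PBS and 2.41 to 248 FPKM (median 6.89) in D1 AP+PBS. Libraries 1 to 4 of D1 AP+PBS had low values of Ly6i, and libraries 5 and 6 had 248 and 50.9 FPKM.

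The highest differences were those of Cpa3, Tpsb2, Gdf15, Sdc1, Stab1, Nxpe5, Endou and Fn1. Stab1 was at 49.9, 113, 117 and 85.9 FPKM in D3 AP+Lac and 102 to 237 FPKM (median 139) in D1 AP+Lac, against 54.05, 42.3, 59.04 and 38.2 FPKM in D3 AP+PBS and 124 to 567 FPKM (median 334) in D1 AP+PBS. Its difference of 1.98 ± 0.43 (SE, adjusted p = 0.00806) thus came with a fall under PBS and no called change under lactate. Nxpe5 (1.97 ± 0.39), Gdf15, a stress-induced cytokine (2.04 ± 0.51), and Fn1, fibronectin (1.77 ± 0.48), also had no called change under lactate. They fell with PBS (log2 fold changes -2.49, -1.28 and -1.002). For Gdf15 and Fn1 the difference was larger than this fall, so their log2 fold changes with lactate were above 0. Cpa3 and the mast cell tryptase Tpsb2 were called in neither direction with PBS, and Tpsb2 was not called with lactate either.

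**Figure D5:**
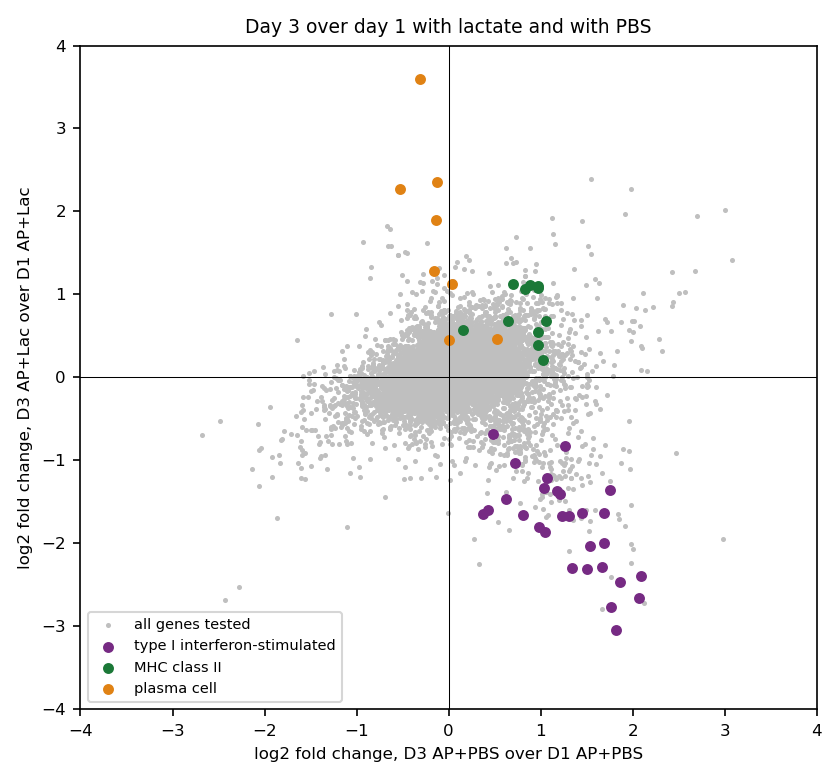
Log2 fold change of each of the 11960 genes, D3 AP+Lac over D1 AP+Lac (vertical axis) against D3 AP+PBS over D1 AP+PBS (horizontal axis), with members of 3 lists in colour. Type I interferon genes lie in the lower right (lower with lactate, higher with PBS) and MHC class II genes in the upper right. Plasma cell markers are above 0 with lactate and have a median of -0.13 with PBS, and the difference between the steps was called for 2 of the 8.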

How the data were processed

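Macrophages sorted from mouse pancreas were profiled by RNA-seq from 10 ng of total RNA, per the labels' protocols, and each library was grouped by its title. FPKM of 25301 genes were deposited by the authors as 1 table. Of tools, fastp and R 3.2.0 are listed, per the submitters' processing notes; for aligner, counter and genome build, nothing is given in the sources used here. FPKM are relative to the mapped fragments, so RNA of 1 cell type that takes a larger share lowers the other values. All 28 libraries were mapped from the table's column names. Depth was recovered from the step between the values of a gene, which 1 fragment sets; 100% of the values were then whole within 0.0001.

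FPKM are not counts, so limma 3.58.1 (R 4.3.3) was run on log2(FPKM + 1), a scale that understates changes of low genes. The 11960 genes that reached FPKM 1 in 3 or more libraries were tested, all 28 libraries shared the spread (trend, robust), and two-sided p-values had a Benjamini-Hochberg adjustment across these genes, with a threshold of 0.05. The exact permutation test is two-sided over 210 splits of 4 against 6 libraries, with a smallest p of 0.0095. Group values are per library or mean ± SD; no counting intervals are given, since replicate spread exceeds counting error.

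The 43 gene lists and their members (808 of 852 entries tested, some shared between lists) were chosen with earlier results of these data known. The lists are therefore described by counts and medians only. Genes named are the 15 highest and 15 lowest called genes whose mean FPKM reached 5 on either day, up to 4 members a list with the smallest p, 36 fixed genes, the 8 highest and 8 lowest differences between the steps, the genes called with the 10 libraries' own spread, and called list members chosen after their values were seen. Tables were made in Python 3.11.15 (pandas 2.3.3, numpy 2.4.6, scipy 1.17.1).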

Additional observations from a re-analysis of the deposited data

Results flagged for a closer look

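The fold change between the days differed between lactate and PBS for 1280 genes, by limma's test of the difference itself. Among the genes named, 47 had a called difference, given here as the log2 fold change with lactate minus that with PBS. The difference was below 0 for Ly6i (-4.93), Isg15 (-4.87), Ifit3b (-4.84), Ifit3 (-4.73), Rsad2 (-4.54), Ifit2 (-4.48), Slfn4 (-4.45), Ifit1 (-4.32), Ifit1bl1 (-4.22), Cxcl10 (-4.17), Gbp10 (-4.08), Irf7 (-3.96), Usp18 (-3.82), Oasl1 (-3.64), Il1rn (-3.40), Gzma (-3.39), Ly6c2 (-3.38), Fscn1 (-3.08), Plac8 (-2.91), Ms4a4c (-2.89), Cacnb3 (-2.75), Ramp3 (-2.59), Oas2 (-2.47), Ifi27l2a (-2.23), Bst2 (-2.03), Mxd1 (-2.01), Nr4a3 (-1.81), Socs2 (-1.54), Lgals9 (-1.25) and Clec9a (-0.99). It was above 0 for Cpa3 (2.25), Tpsb2 (2.06), Gdf15 (2.04), Sdc1 (2.03), Stab1 (1.98), Nxpe5 (1.97), Endou (1.95), Fn1 (1.77), Tnfrsf17 (1.44), Fcer1a (1.43), Mrc1 (1.37), Adgre1 (1.22), Csf1r (1.09), Pdia4 (0.87), Xbp1 (0.83), Aco1 (0.69) and Edem1 (0.52).

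A library lay far from the others of its group, by the ratio of its gap to the group's range, in 9 of 246 groups of values checked; chance flags about 1 in 20. Gbp2b was highest in D1 AP+Lac 2 at 23.1 FPKM, against 5.12 FPKM in the nearest library. Fcna was highest in D1 AP+Lac 5 at 28.6 FPKM, against 17.8 FPKM in the nearest library. Itgae was lowest in D3 AP+Lac 3 at 3.76 FPKM, against 10.3 FPKM in the nearest library. Mmp12 was highest in D3 AP+Lac 3 at 9.62 FPKM, against 1.12 FPKM in the nearest library. Socs2 was lowest in D1 AP+Lac 2 at 1.28 FPKM, against 2.41 FPKM in the nearest library. Reg3g was highest in D1 AP+Lac 4 at 47.8 FPKM, against 17.1 FPKM in the nearest library. Fscn1 was lowest in D1 AP+Lac 2 at 59.1 FPKM, against 129 FPKM in the nearest library. Cacnb3 was lowest in D1 AP+Lac 2 at 12.8 FPKM, against 30.9 FPKM in the nearest library. Cd209f was lowest in D1 AP+Lac 6 at 1.97 FPKM, against 2.95 FPKM in the nearest library.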

How the results depend on the processing

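The lactate step called 553 genes, and between 396 and 660 with a pseudocount of 0.1, another filter, another scaling or an acinar covariate. It called 355 with a lymphocyte covariate, 1535 with array weights, 17 with the compared libraries alone and 159 to 1392 when 1 library was left out. The difference between the steps called 1280 genes, and 1924 with a lymphocyte covariate, 3684 with array weights, 546 with the compared libraries alone, 3408 without libraries 5 and 6 of both day 1 groups (chosen after seeing the data) and 622 to 2154 when 1 lactate library was left out. The PBS step called 4103 genes, and 1697 with the lymphocyte covariate. Why these counts moved was not tested. The fits to the compared libraries alone differ from the main fit both in the number of libraries and in the spread used.

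With the replicate number as a block the lactate step called 0 genes by limma, 1322 at an unadjusted p under 0.05, and the difference 738; the block leaves day 1 libraries 5 and 6 without a partner. The numbers do not pair the libraries: same-numbered D3 AP+Lac and D1 AP+Lac libraries had correlations of their deviations of 0.099, -0.041, -0.57 and 0.18, and no day 3 library correlated best with its own number.

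Each of the 87 named genes that were called kept its direction in the settings where it had a value, all of them refits of these libraries. Genes that were not called changed sign on the log2 scale: Adgre1 (0.045), Ccr2 (0.10) and Il10 (-0.024) with quantile normalization; Adgre1 (0.10), Folr2 (0.17) and Ccr2 (0.12) with a lymphocyte covariate; Adgre1 (0.10), Folr2 (0.0031), Ccr2 (0.012), Il1b (-0.13) and Tnf (-0.22) with array weights; Adgre1 (0.084), Folr2 (0.16), Ccr2 (0.13), Il1b (-0.10) and Tnf (-0.032) with the replicate block; Adgre1 (0.084), Folr2 (0.16), Ccr2 (0.13), Il1b (-0.10) and Tnf (-0.032) with the libraries 5 and 6 left out; Csf1r (-0.10) and Il10 (-0.011) with median-ratio scaling. When 1 library was left out the log2 fold change ran from -0.27 to 0.13 for Adgre1, -0.073 to 0.16 for Csf1r, -0.049 to 0.37 for Mrc1, -0.42 to 0.035 for Folr2, -0.27 to 0.055 for Ccr2, -0.19 to 0.39 for Il10 and -1.16 to 0.26 for Nos2. With a low FPKM the added 1 limits what can be seen, and 5 of the 87 genes had no value under the stricter filter.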

Other observations

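In D1 AP+Lac library 2 the interferon list, Ramp3, Fscn1 and Cacnb3 were at the low end of the group, and neutrophil markers summed to 176, 578, 228, 119, 171 and 113 FPKM in D1 AP+Lac libraries 1 to 6, against 189, 338, 159.9 and 81.7 FPKM in D3 AP+Lac libraries 1 to 4, with library 2 the highest. D3 AP+Lac library 3 had the highest interferon list and the lowest plasma cell, mast cell, B cell, T cell and cell cycle sums of its group; the cell cycle list summed to 1472, 1123, 716 and 1668 FPKM on day 3 and 779, 1384, 1544, 689, 561 and 458 FPKM on day 1.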
